A study of Mus musculus and Homo sapiens with 22 samples.

Results

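The mitochondrial ribosomal protein genes of mouse were described in RNA-seq counts of cells labelled 4T1, a mouse mammary carcinoma line, treated with ENMD-2076 or TAK901, small molecules known as inhibitors of Aurora kinases. The members were all genes of the 4T1 count tables whose symbol has the form Mrpl or Mrps, a number and at most 1 further letter, with 5 pseudogenes left out. This gave 77 of 38924 gene IDs, of which 48 code for large subunit (Mrpl) and 29 for small subunit (Mrps) proteins, spread over 17 chromosomes. Of the 77, 76 passed the filter on low counts and were tested. The remaining member, Mrpl53 (chr6:83109040-83109939, GRCm38), had 0 counted reads in all 12 libraries. This allows up to 3 counted reads, or 0.0972 to 0.801 CPM (counts scaled to a common library size) depending on the library. Its gene body is overlapped on the same strand by Gm42688, and reads shared with that gene may have gone uncounted. The limit thus bounds counted reads and not expression.

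Mitochondria carry their own ribosome, which makes the proteins encoded in mitochondrial DNA, all of them subunits of the respiratory chain and ATP synthase. Its rRNAs are made inside the organelle, but every one of its proteins is encoded in the nucleus, translated in the cytosol and imported. The large subunit joins amino acids and feeds the new protein into the inner membrane through its exit tunnel, and the small subunit holds the mRNA and checks codon against anticodon. Some of the proteins descend from bacterial ribosomal proteins and others are found only in mitochondria. The promoters of genes for mitochondrial proteins are known for sites of nuclear respiratory factor 1 (NRF1), of the ETS-family factor GABP (also called NRF2) and of YY1.

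The study treated MDA-MB-231 and 4T1 cells, and 12 of its 22 libraries carry the label 4T1. Cells were grown for 24 h after plating and then exposed for 24 h to 1.25 or 2.5 µM ENMD-2076, to 1 or 2 µM TAK901, or to the vehicle DMSO, with 2 libraries in each of 6 groups. The ENMD-2076 libraries were compared with the libraries titled DMSO 1 and 2, and the TAK901 libraries with DMSO 3 and 4. The doses follow the sample labels and the design text, while the growth protocol gives 1 or 2 µM for ENMD-2076 on 4T1 cells. The headers inside the 4 ENMD-2076 count tables read 10 µM for both dose groups and name no compound, so that compound and dose of these libraries rest on the labels. All groups carry the cell line label 4T1 with no engineered allele named, and nothing in the labels says whether the libraries of a group came from separate cultures, so the p-values measure only the spread between these libraries. RNA was taken from whole cultures, where fewer cells of a kind and less of a transcript per cell cannot be told apart.

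Libraries held 14418492 to 30866819 counted reads, except those of TAK901 2 µM with 6004077 and 3746588. The scaling factors of the trimmed mean of M values (TMM) were 0.766 and 0.784 at ENMD-2076 2.5 µM and 0.989 to 1.12 in the other libraries. The DMSO 1, 2 and ENMD-2076 libraries had 0 reads of Y-linked genes (Uty, Kdm5d, Eif2s3y, Ddx3y) and 0 CPM of Hnf4a, whereas the DMSO 3, 4 and TAK901 libraries had 1004 to 7021 Y-linked reads and 206 to 249 CPM of Hnf4a, although 4T1 is known as a line from a female mouse. No treatment was therefore compared across these sets. The summed level of 8 epithelial markers (Epcam, Cdh1, keratins and claudins) was 3225 and 3119 CPM at ENMD-2076 2.5 µM and 4598 to 5998 CPM elsewhere. These markers went different ways at that dose (log2 fold change against DMSO 1, 2, edgeR, adjusted p under 0.05). Cldn4 (-2.81), Cldn3 (-2.72), Krt18 (-1.44), Krt19 (-0.93) and Krt7 (-0.48) fell and Cdh1 (0.22) rose. Epcam (-0.04) and Krt8 (-0.01) were not past the threshold. The summed level of 6 haematopoietic markers was 8.94 and 13.0 CPM at ENMD-2076 1.25 µM and at most 2.39 CPM elsewhere, and that of 4 endothelial markers was 3.47 and 5.04 CPM at ENMD-2076 2.5 µM and at most 2.41 CPM elsewhere. Group means of the summed fibroblast markers were 28.2 to 40.8 CPM in DMSO 1, 2 and ENMD-2076 and 17.2 to 20.8 CPM in DMSO 3, 4 and TAK901. The non-coding transcripts Gm26917 and Gm42418 reached 2185 and 2004 CPM and 4906 and 4863 CPM at ENMD-2076 2.5 µM, against at most 92.6 and 926 CPM elsewhere. The part of these differences in the results on the members was not tested.

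The RefSeq promoter table (GRCm38.p6) held 250 bases before the start for 68 of the 77 members. Mrpl4, Mrpl13, Mrpl15, Mrpl19, Mrpl38, Mrpl54, Mrps28, Mrps34 and Mrps35 are not in it. Each motif was searched on both strands: GCGCANGCG for NRF1, CCGGAAG for ETS factors, AAGATGGCG for YY1, GGGCGG for SP1, CACGTG for the E-box, TCAAGGTCA for ESRRA and TGACGTCA for the cAMP response element. Matches of NRF1 on the 2 strands can overlap each other, since the motif is nearly its own reverse complement. The NRF1 motif stood in 13 of 68 member promoters (19.1%), against 5.86% of 27025 genes in the table and 11.9% of the tested genes. The ETS motif stood in 18 (26.5%), against 7.83% and 15.1%. The YY1 motif stood in 2 (2.94%, against 0.710% and 1.40%) and the SP1 motif in 33 (48.5%, against 35.4% and 62.0%). The E-box stood in 5 (7.35%, against 6.86% and 9.64%), the cAMP response element in 2 (2.94%, against 1.77% and 3.01%) and the ESRRA motif in 0 of 68 (0.422% of all genes). NRF1 matches stood in 11 of 42 large and 2 of 26 small subunit promoters, and ETS matches in 12 and 6. A match is a description of the letters and does not show that a factor binds.

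The 80 bases before the start are printed 5′ to 3′ on the gene's strand for members named in the comparisons described further on, first those with an NRF1 match (Mrpl9, Mrpl45), then ETS (Mrpl3, Mrpl52, Mrps22, Mrps26), and last members with a large rise (Mrpl28, Mrpl42) and the largest fall (Mrpl55) at ENMD-2076 2.5 µM, with none of the NRF1, ETS and YY1 motifs there. Starts are those of RefSeq. Capitals mark NRF1, ETS or YY1 matches. For Mrpl9 they cover 2 overlapping matches, on opposite strands.
Mrpl9 (chr3:94443256-94443335, plus strand): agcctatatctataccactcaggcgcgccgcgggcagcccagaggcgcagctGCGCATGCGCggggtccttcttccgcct
Mrpl45 (chr11:97315636-97315715, plus strand): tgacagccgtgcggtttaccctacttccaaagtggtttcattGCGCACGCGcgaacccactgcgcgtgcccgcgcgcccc
Mrpl3 (chr9:105053188-105053267, plus strand): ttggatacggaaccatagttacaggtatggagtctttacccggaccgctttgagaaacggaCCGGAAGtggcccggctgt
Mrpl52 (chr14:54426829-54426908, plus strand): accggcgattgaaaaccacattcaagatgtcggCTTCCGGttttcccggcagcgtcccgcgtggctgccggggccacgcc
Mrps22 (chr9:98601680-98601759, minus strand): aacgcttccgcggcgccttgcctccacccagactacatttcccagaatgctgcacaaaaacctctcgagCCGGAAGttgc
Mrps26 (chr2:130563677-130563756, plus strand): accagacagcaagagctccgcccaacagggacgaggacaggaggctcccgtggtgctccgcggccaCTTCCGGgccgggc
Mrpl28 (chr17:26123423-26123502, plus strand): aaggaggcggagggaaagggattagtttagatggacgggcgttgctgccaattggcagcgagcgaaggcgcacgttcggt
Mrpl42 (chr10:95501950-95502029, minus strand): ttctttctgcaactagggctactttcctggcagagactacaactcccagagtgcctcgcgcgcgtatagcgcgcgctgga
Mrpl55 (chr11:59202406-59202485, plus strand): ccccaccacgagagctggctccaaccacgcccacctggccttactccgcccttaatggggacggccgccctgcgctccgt

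Mrpl46, a large subunit gene, and Mrps11, a small subunit gene, stand head to head on opposite strands. By the RefSeq starts a stretch of 41 bases lies between them and belongs to both promoters, whereas in the GENCODE annotation the genes overlap by 413 bases. It is shown on the plus strand, and capitals mark its SP1 match.
Mrpl46 and Mrps11 (chr7:78783090-78783130): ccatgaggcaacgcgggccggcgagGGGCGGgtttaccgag

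In cells given the vehicle DMSO the members were expressed at widely different levels. Genes were set beside each other as CPM per kilobase of exon, counted over all annotated exons of a gene. This length can exceed that of the transcript expressed, which was not measured, so the order of genes is approximate. On this scale Mrps6, a small subunit protein of bacterial origin, stood highest in DMSO 1, 2 with 59.1 ± 2.85 (SD, n = 2). It was followed by Mrps21 with 56.1 ± 4.78 and Mrpl2 with 49.3 ± 0.741. Mrps6 and Mrps21 differed by less than the larger of their SDs. In DMSO 3, 4 the order differed: Mrps21 stood at 64.4 ± 4.38, Mrpl28 at 53.3 ± 3.27, Mrpl34 at 51.2 ± 2.70, and Mrps6 at 26.3 ± 1.02 CPM per kilobase. Mrpl48 was lowest of the tested members in DMSO 1, 2, with 1.78 ± 0.103 CPM per kilobase, and stood at 1.44 ± 0.0802 in DMSO 3, 4. Its annotated exons cover 8152 bases. Without division by length it had 14.5 CPM in DMSO 1, 2, above Mrps12 with 8.56 CPM. Mrps6 overlaps Slc5a3 on the same strand. Between the DMSO pairs, 66 of 76 members lay within 1.5-fold of each other and the median ratio of DMSO 3, 4 over DMSO 1, 2 was 1.06. The 3 members over 2-fold apart were Mrps6 (ratio 0.445), Mrpl24 (0.487) and Mrps25 (2.31). This contrast between sets carries the Y-linked difference given above and was not tested.

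**Figure D1:**
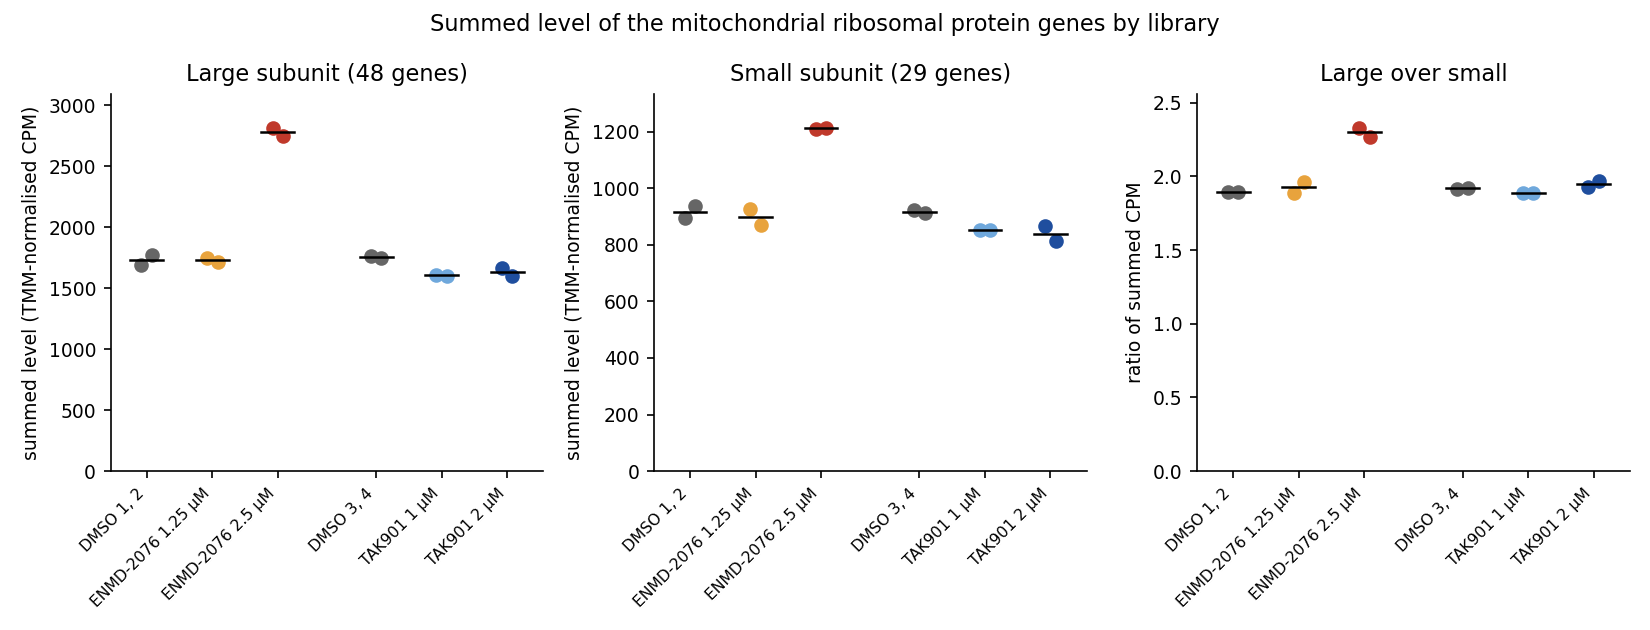
Summed level of the 48 large and 29 small subunit genes (TMM-normalised CPM, y axis) and the ratio of these sums, by group. Each point is a library and each line the mean of 2. Both sums are highest in the 2 ENMD-2076 2.5 µM libraries, where the ratio of large to small is 2.33 and 2.27 against 1.88 to 1.97 in the other 10 libraries.

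At ENMD-2076 2.5 µM the transcripts of the mitochondrial ribosome changed in both directions and were on balance higher on the TMM scale. The summed level of all members was 2588 and 2713 CPM in DMSO 1, 2 and 4026 and 3964 CPM at 2.5 µM, a 1.51-fold higher mean, and the groups did not overlap. As a share of all counted reads the members took 0.258% and 0.268% in DMSO 1, 2 and 0.308% and 0.311% at 2.5 µM. Such a share amounts to scaling to total counts, so it depends on the levels of all other transcripts. Against the spread over all libraries, 43 of 76 tested members rose and 18 fell (edgeR quasi-likelihood test, adjusted p under 0.05), where 33.2% of all 15375 tested genes rose and 37.1% fell. The shares of the members were 56.6% and 23.7%, and their difference from the background was not tested. The median log2 fold change of the members was 0.40, with a range of -2.25 to 2.45, against -0.02 over all tested genes. Among those called, 17 rose and 3 fell by more than 2-fold. The 15375 genes passed a filter over all 6 groups, so they include genes without reads in these libraries, which cannot be called. Fitted with the libraries of the 2 groups alone, 44 of 76 members rose and 14 fell, where 4973 and 5039 of 13004 genes did.

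The size of this balance depends on how the 2 ENMD-2076 2.5 µM libraries are scaled. With scaling to total counts 30 members were higher and 28 lower, where 3760 and 7247 of 15375 genes were. The share of higher among called members went from 70.5% to 51.7%. The median of the members was 0.04 while that of all genes moved to -0.37. The median of the members lay above that of all genes by 0.41 on both of these scales. This gap was 0.53 with the size factors of DESeq2 used in edgeR and 0.53 in DESeq2 itself. On the TMM scale it was 0.31 without DMSO 1 and 0.50 without DMSO 2. With the size factors of DESeq2 used in edgeR 46 members were higher and 13 lower (78.0% higher), where 5751 and 5052 genes were. DESeq2 itself called 45 and 11 (80.4% higher), where it called 5533 and 4881 genes. Folds given below are relative to the TMM scale.

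Mrpl18, a large subunit protein of bacterial origin that is also known to carry 5S rRNA into mitochondria, had the largest rise. Its level was 32 and 30.00 CPM in DMSO 1, 2 and 170.1 and 169.8 CPM at 2.5 µM, with no overlap (log2 fold change 2.45 with SE 0.08, adjusted p = 8.13e-22). Mrpl44, whose fold resembles that of RNase III and which is known to be needed for large subunit assembly, was at 22.8 and 20.1 CPM and at 78.6 and 76.6 CPM (log2 fold change 1.86 with SE 0.10, adjusted p = 1.9e-16). Mrpl28, of bacterial origin, was at 46.5 and 50.8 CPM and at 170.4 and 175 CPM (log2 fold change 1.83 with SE 0.07, adjusted p = 1.28e-19). Mrpl42, found only in mitochondria, was at 49.7 and 51.2 CPM and at 164 and 173 CPM (log2 fold change 1.74 with SE 0.08, adjusted p = 1.63e-18). All 4 are large subunit genes, and in each of them both treated libraries lay more than 3 times above both controls. Mrpl18 (chr17:12911349-12916345) overlaps Tcp1, a chaperonin subunit gene on the other strand, whose own log2 fold change was 1.12 (adjusted p = 9.47e-17). Mrpl44 (chr1:79776018-79781445) overlaps Wdfy1, which went the other way with -0.96 (adjusted p = 4.3e-11). The library kit does not mark strand, so reads of overlapping genes cannot be told apart where they overlap.

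The falls were led by Mrpl55, a small component of the large subunit, with 14.4 and 17 CPM in DMSO 1, 2 and 3.09 and 3.54 CPM at 2.5 µM (log2 fold change -2.25 with SE 0.20, adjusted p = 1.01e-11). Mrpl41, which is found only in mitochondria, fell from 15.4 and 14.3 CPM to 8.34 and 3.98 CPM (log2 fold change -1.21 with SE 0.21, adjusted p = 4.44e-06). Its treated libraries lay apart from each other, and both lay below the controls. Mrpl21, of bacterial origin, was at 33 and 38.8 CPM and at 17.6 and 17.6 CPM (log2 fold change -1.02 with SE 0.12, adjusted p = 1.08e-08). Mrpl24, whose bacterial relative starts large subunit assembly, was at 82.7 and 85.9 CPM and at 43.6 and 41.2 CPM (log2 fold change -0.99 with SE 0.08, adjusted p = 6.28e-12). These fallers are large subunit genes too, so the widest changes in both directions were found among Mrpl genes. Mrpl21 (chr19:3282901-3292837) overlaps Ighmbp2, whose log2 fold change of 0.49 had the opposite sign, and Mrpl24 (chr3:87919506-87923672) overlaps Rrnad1, with 0.12 (adjusted p = 0.33). Mrpl55 (chr11:59202486-59206134) and Mrpl41 (chr2:24974117-24975098) are overlapped by no other annotated gene. Over the 41 tested members with no overlapping gene 21 rose and 11 fell, and over the 35 others 22 rose and 7 fell.

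**Figure D2:**
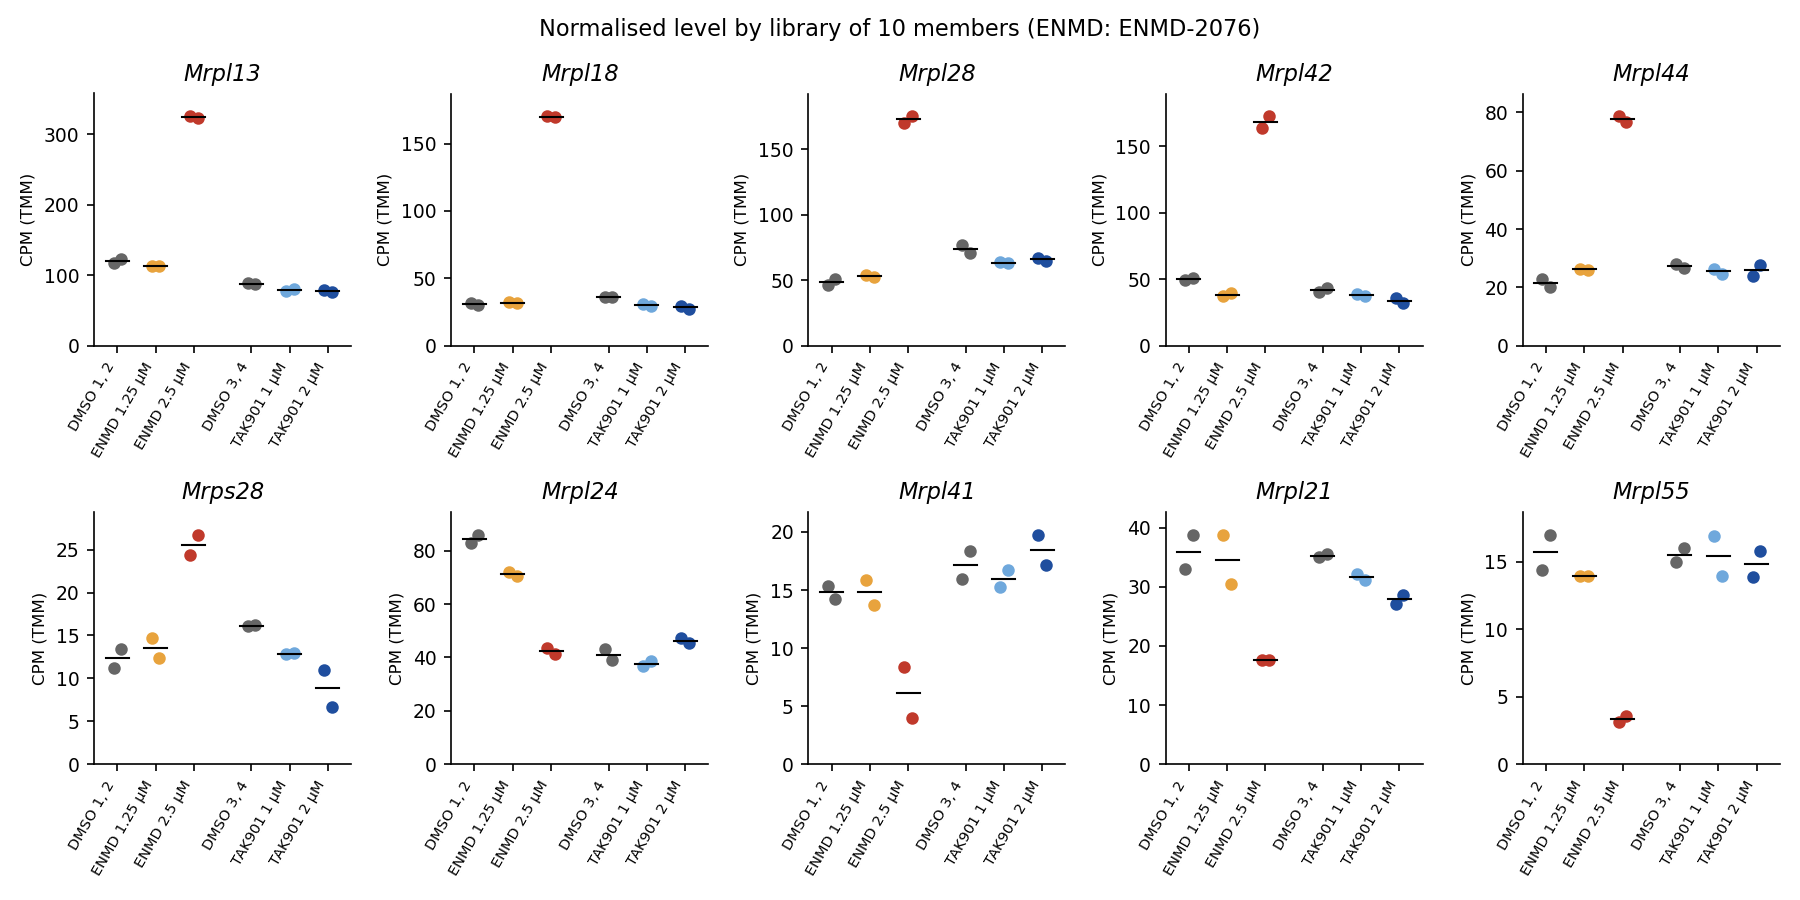
Level (TMM-normalised CPM, y axis from 0) of 10 members in each of the 12 libraries. Points are libraries, lines are means of 2. Mrpl13, Mrpl18, Mrpl28, Mrpl42, Mrpl44 and Mrps28 are highest and Mrpl21, Mrpl41 and Mrpl55 lowest in the 2 ENMD-2076 2.5 µM libraries, and Mrps28 is lowest in the 2 TAK901 2 µM libraries.

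Genes with known places in the ribosome did not move as a block at 2.5 µM. Mrpl12, the counterpart of the bacterial stalk protein that recruits translation factors, was at 33 and 34.3 CPM in DMSO 1, 2 and rose to 75.4 and 66.6 CPM (log2 fold change 1.08 with SE 0.10, adjusted p = 4.92e-11). Mrpl45, which is known to anchor the ribosome to the inner membrane at the tunnel exit, had 47.3 and 59.9 CPM and 74.2 and 59.3 CPM (log2 fold change 0.33 with SE 0.10, adjusted p = 0.004), so that its treated and control libraries overlapped, and this call was lost without DMSO 1 (0.15, adjusted p = 0.241) or without the first ENMD-2076 2.5 µM library (0.17, adjusted p = 0.185). Its log2 fold change turned to -0.03 under total-count scaling. Mrpl58, also called ICT1, a peptidyl-tRNA hydrolase that frees stalled ribosomes, fell from 25.1 and 24.7 CPM to 14.1 and 14.6 CPM (log2 fold change -0.80 with SE 0.13, adjusted p = 3.22e-06). Mrps12, the counterpart of the bacterial protein at the decoding centre, was at 8.22 and 8.90 CPM and 8.97 and 7.25 CPM (log2 fold change -0.06 with SE 0.20, adjusted p = 0.806).

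The 3 paralogues of the bacterial small subunit protein numbered 18 went different ways. Mrps18a, which ribosome structures place in the large subunit, was at 33.8 and 31.7 CPM and 44.8 and 44.1 CPM (log2 fold change 0.44 with SE 0.10, adjusted p = 0.000157). Mrps18b was at 18.5 and 22.7 CPM and 25.5 and 24.3 CPM (log2 fold change 0.28 with SE 0.13, adjusted p = 0.0614). Mrps18c was at 28.2 and 28 CPM and 22.7 and 18.8 CPM (log2 fold change -0.43 with SE 0.12, adjusted p = 0.00168), a call lost without the second ENMD-2076 2.5 µM library (adjusted p = 0.0631). The first of these was past the threshold upwards, the last downwards. Mrps30, likewise placed in the large subunit by structures, rose with 0.62 (SE 0.13, adjusted p = 0.000129). Mrps36, which despite its symbol is known as a part of the alpha-ketoglutarate dehydrogenase complex, had 0.44 (SE 0.17, adjusted p = 0.0178), lost without DMSO 1 (adjusted p = 0.297) and without the second treated library (adjusted p = 0.0636).

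At ENMD-2076 1.25 µM the members changed in both directions with no net shift. Of 76 tested members 11 rose and 11 fell (14.5% each), where 22.6% of all genes rose and 23.2% fell, and the median log2 fold change was -0.00 with a range of -0.60 to 0.65. The summed level was 2672 and 2584 CPM, beside 2588 and 2713 CPM in DMSO 1, 2, with means that differed by less than the SD of either group. No called change exceeded 2-fold. Fitted with the libraries of the 2 groups alone, 9 of 76 members rose and 10 fell, where 3090 and 3216 of 12580 genes did. With scaling to total counts 14 were higher and 9 lower (60.9% higher, against equal numbers on the TMM scale), where 3685 and 3402 of 15375 genes were. Without the second DMSO library 7 members were lower, and without the second ENMD-2076 1.25 µM library 6.

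Mrpl36, a very small zinc-binding protein of the large subunit, was at 14.4 and 17.5 CPM in DMSO 1, 2 and 25 and 25 CPM at 1.25 µM (log2 fold change 0.65 with SE 0.13, adjusted p = 0.000143). Mrps34, a mitochondria-specific small subunit protein, was at 8.98 and 10.7 CPM and 18.9 and 12.5 CPM (log2 fold change 0.64 with SE 0.18, adjusted p = 0.0046), with the treated libraries far apart. Its call was lost without DMSO 1 (0.51, adjusted p = 0.0680) and without the first treated library (0.35, adjusted p = 0.142). Mrpl54 had 21.5 and 26.4 CPM and 34.5 and 36.6 CPM (log2 fold change 0.57 with SE 0.11, adjusted p = 5.16e-05). Mrpl27, which in bacteria reaches towards the peptidyl transferase centre, had 19.95 and 17.3 CPM and 27.4 and 27.3 CPM (log2 fold change 0.55 with SE 0.13, adjusted p = 0.000615). In these members the treated libraries lay above both controls. Mrpl36 (chr13:73328513-73332178) overlaps the complex I gene Ndufs6, whose log2 fold change was 0.54 (adjusted p = 4.6e-05), Mrps34 overlaps Mapk8ip3, with -0.29 (adjusted p = 0.000895), and on its own strand Nme3, which had 0 reads in all 12 libraries, and Mrpl27 (chr11:94653767-94660089) overlaps Eme1, with -3.17 (adjusted p = 3.4e-14).

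Mrpl4, of bacterial origin, led the falls with 28.8 and 33.1 CPM in DMSO 1, 2 and 21.2 and 19.6 CPM at 1.25 µM (log2 fold change -0.60 with SE 0.11, adjusted p = 4.6e-05). Mrpl9, whose promoter carries the overlapping NRF1 matches printed above, had 101 and 93.5 CPM and 68.3 and 64.2 CPM (log2 fold change -0.56 with SE 0.08, adjusted p = 4.46e-07). Mrps22, a mitochondria-specific small subunit protein known from inherited respiratory chain disease, had 30.3 and 34.1 CPM and 23.4 and 21.8 CPM (log2 fold change -0.52 with SE 0.11, adjusted p = 0.00039). Mrps9 had 60.5 and 63.8 CPM and 47.2 and 41.4 CPM (log2 fold change -0.50 with SE 0.09, adjusted p = 3.09e-05). None of the treated libraries reached the lower control in these 4 members. Mrpl9 (chr3:94443318-94451130) overlaps Oaz3, whose change at this dose was not past the threshold (adjusted p = 0.666). Calls of the members with smaller changes rested on single libraries: Mrps26 was lost without DMSO 1 (adjusted p = 0.219) or the second treated library (0.223), and Mrpl44 without DMSO 2 (adjusted p = 0.244) or either treated library (0.0607 and 0.0728). Mrps35 was lost without DMSO 1 (adjusted p = 0.0714) or the second treated library (0.131), and Mrps18b without DMSO 2 (-0.31, adjusted p = 0.119).

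Set directly against 1.25 µM, the 2.5 µM libraries had 40 members higher and 16 lower of 76 (52.6% and 21.1%), where 35.4% of all genes were higher and 37.8% lower, with a median log2 difference of 0.34. Under total-count scaling the counts were 29 and 30 (49.2% higher, against 71.4%), where 4177 and 7343 of 15375 genes were higher and lower. The median of all genes was then -0.38 and that of the members -0.04. Fitted with these 2 groups alone on the TMM scale, 39 members were higher and 14 lower, where 5032 and 5193 of 13079 genes were. Mrpl18 was at 32.1 and 31.7 CPM at 1.25 µM, beside its DMSO level, and differed between doses by 2.41 (SE 0.08, adjusted p = 4.8e-22). Mrpl42 stood at 37.1 and 39.4 CPM at 1.25 µM, below both DMSO libraries, and differed between doses by 2.13 (SE 0.08, adjusted p = 9.66e-21). Mrpl55 had 14 and 13.9 CPM at 1.25 µM and a difference of -2.08 (SE 0.20, adjusted p = 5.05e-11). Mrpl41 had 15.9 and 13.7 CPM at 1.25 µM and a difference of -1.20 (SE 0.20, adjusted p = 4.21e-06). Apart from Mrpl42, these members were close to the DMSO libraries at the lower dose.

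A few members passed the test in opposite directions at the 2 doses, both times against the same DMSO libraries. Mrpl42 had -0.39 (SE 0.08, adjusted p = 0.000206) at 1.25 µM and 1.74 at 2.5 µM. Mrps26, a mitochondria-specific small subunit protein, was at 36.8 and 33.4 CPM in DMSO 1, 2, at 30.5 and 27.9 CPM at 1.25 µM (-0.28, adjusted p = 0.0309) and at 85.9 and 97.4 CPM at 2.5 µM (log2 fold change 1.38 with SE 0.10, adjusted p = 1.31e-13). It overlaps 4930473A02Rik, which changed by 2.95 at 2.5 µM (adjusted p = 0.001). Mrpl4 had -0.60 at 1.25 µM and 0.62 (SE 0.11, adjusted p = 7.54e-06) at 2.5 µM, where its level was 44.5 and 51 CPM. Mrps35 had -0.36 (adjusted p = 0.00964) and 0.47 (SE 0.11, adjusted p = 0.000443). For each of the 4 the direct difference between doses was itself past the threshold, at 2.13 for Mrpl42, 1.66 for Mrps26, 1.23 for Mrpl4 and 0.83 for Mrps35.

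**Figure D3:**
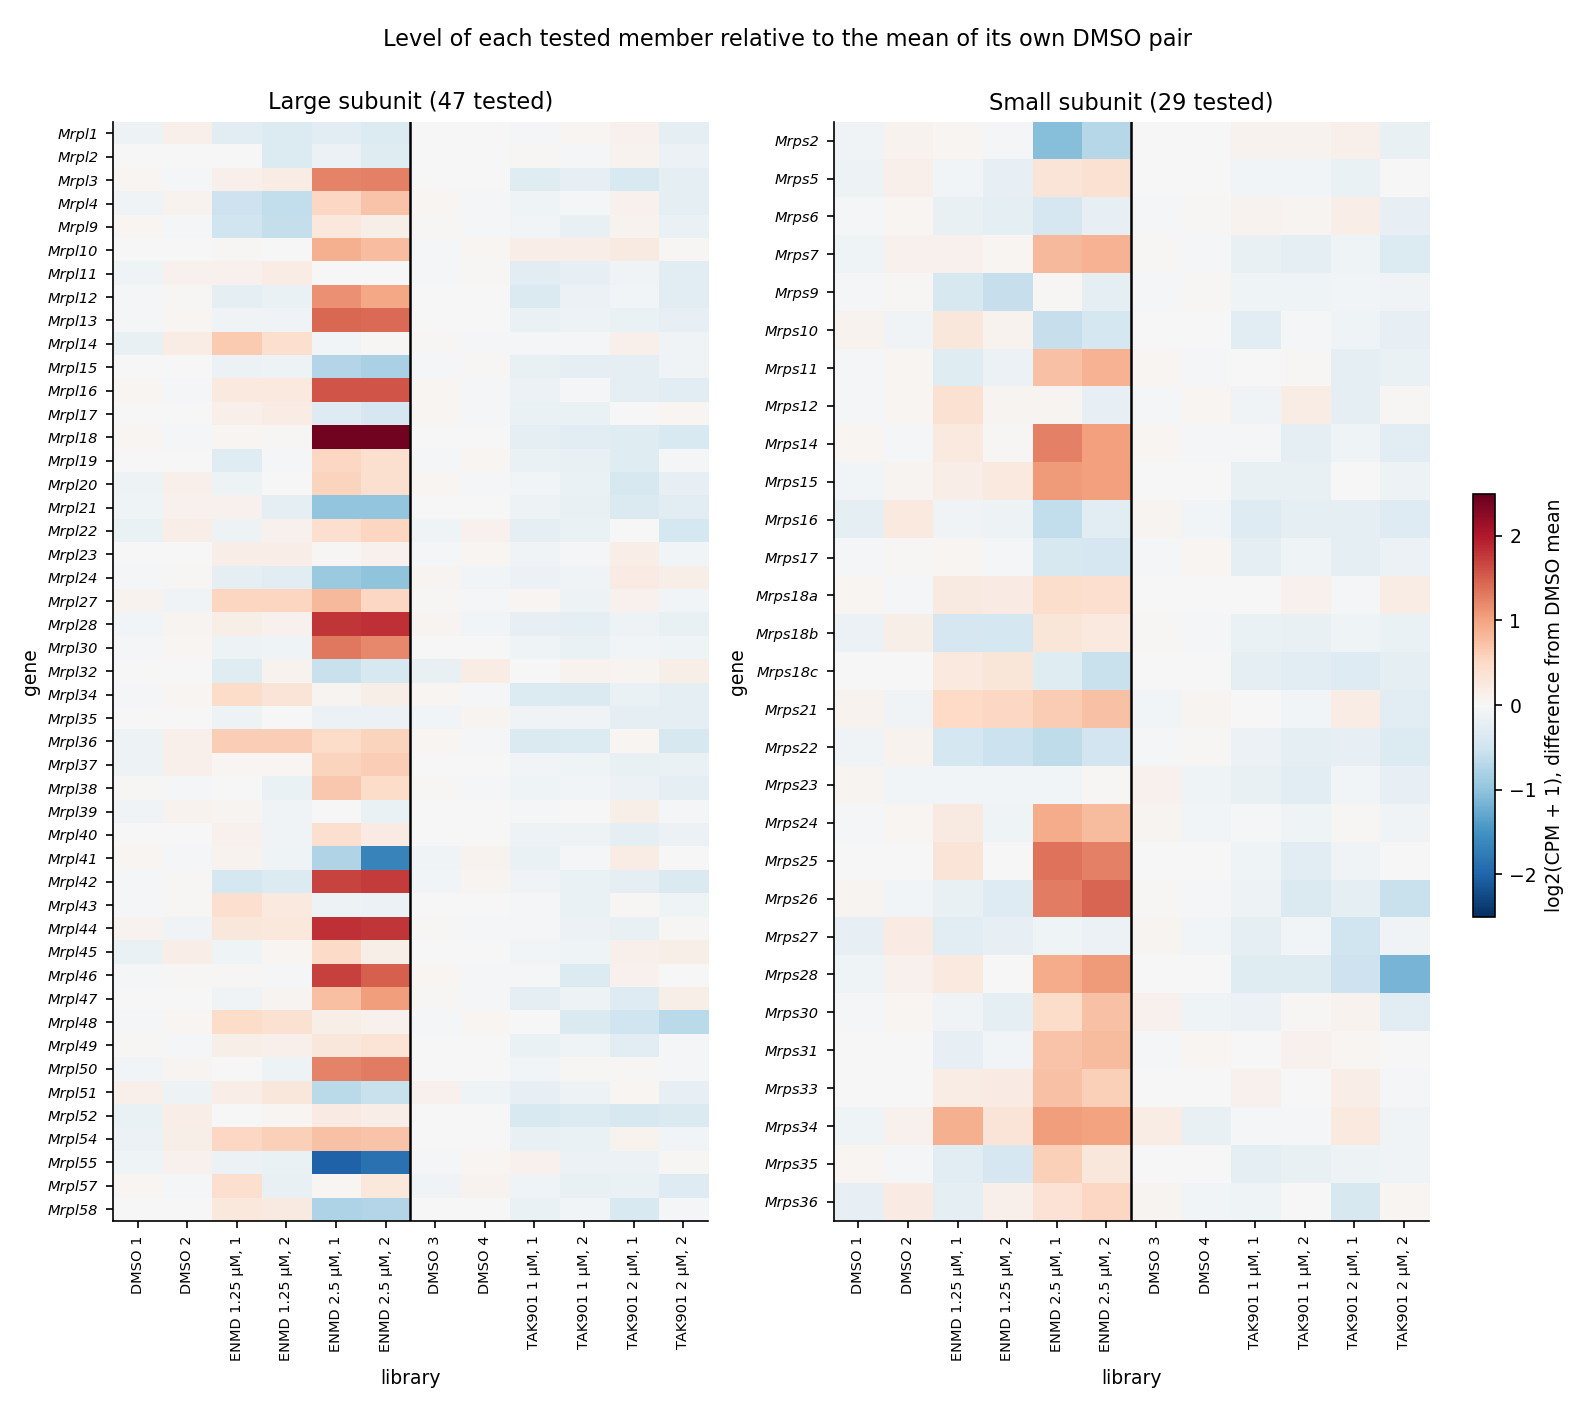
Each row is a tested member and each column a library. Colour gives log2(CPM + 1) minus the mean of the DMSO pair of the same set (red above, blue below). The ENMD-2076 2.5 µM columns hold the strongest colours in both directions, with Mrpl18 reddest and Mrpl55 bluest, and the TAK901 columns are pale blue in most rows.

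With TAK901 the members were slightly lower at both doses, and few of them passed the test. The members summed to 2691 and 2664 CPM in DMSO 3, 4, to 2459 and 2455 at 1 µM and to 2535 and 2413 at 2 µM, so that both doses lay below both controls, with means 0.918 and 0.924 times that of DMSO. The mean was below DMSO in 66 of 76 members at 1 µM and in 60 at 2 µM, and the median log2 fold change was -0.13 at both doses, against 0.00 and -0.02 over all tested genes. Under total-count scaling the members' medians were -0.11 and -0.07. The doses share their controls. At 1 µM 4 members fell (5.26%), where 5.17% of all genes fell, and 0 rose, where 3.97% of all genes rose. At an unadjusted p under 0.05, 16 were lower and 1 higher, and DESeq2 called 2 lower and 0 higher. At 2 µM 6 members fell (7.89%), where 9.28% of all genes fell, and 0 rose, where 5.63% of all genes rose. At an unadjusted p under 0.05, 14 were lower and 0 higher, and DESeq2 called 4 lower and 0 higher. In the fit over all 12 libraries the share of members called lower thus lay near the background at both doses. At 1 µM fits with fewer groups called more members lower, as given below.

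Mrpl52, a mitochondria-specific large subunit protein, had 19.9 and 20.01 CPM in DMSO 3, 4 and 15.2 and 15.5 CPM at TAK901 1 µM (log2 fold change -0.38 with SE 0.12, adjusted p = 0.0462). Mrpl34, a small basic protein of bacterial origin, had 32.2 and 29.9 CPM and 24.4 and 24.1 CPM (log2 fold change -0.36 with SE 0.10, adjusted p = 0.0263). Mrpl18 had 36.3 and 36.2 CPM and 30.6 and 29.5 CPM (log2 fold change -0.27 with SE 0.08, adjusted p = 0.0333). In these, and in Mrpl3, which reaches into the peptidyl transferase centre (log2 fold change -0.26 with SE 0.08, adjusted p = 0.0406), the treated libraries did not overlap the controls. All 4 are large subunit genes, and all 4 promoters held the ETS motif (80 bases of Mrpl3 and Mrpl52 are printed above). It was held by 26.5% of member promoters and by 15.1% of tested genes. With only 4 genes this is a description, and no test of the difference was made. None of the 4 calls held when any of the 4 libraries compared was left out, and 0 of 76 members were called lower in each of these fits. Under total-count scaling 1 member was lower, where 640 of 15375 genes were. Fitted with the TAK901 and DMSO 3, 4 libraries alone, 15 of 76 members were lower, where 1644 of 14505 genes were. With the libraries of the 2 groups alone 19 of 76 were lower and 1 higher, where 1990 and 1729 of 14493 genes were. In these last 2 fits the share of lower members lay above that of all genes, and the difference was not tested.

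At 2 µM, Mrps28, a small subunit protein, had 16.1 and 16.2 CPM in DMSO 3, 4 and 11 and 6.68 CPM in the treated libraries (log2 fold change -0.81 with SE 0.20, adjusted p = 0.0047), and its call was lost without the second treated library (-0.56, adjusted p = 0.134). Mrpl48, a mitochondria-specific large subunit protein, had 11.3 and 12.2 CPM and 7.99 and 6.92 CPM (log2 fold change -0.64 with SE 0.21, adjusted p = 0.0341). Mrps26 had 47 and 45.3 CPM and 38.7 and 31.3 CPM (log2 fold change -0.38 with SE 0.12, adjusted p = 0.0277). Mrpl18 had 36.3 and 36.2 CPM and 29.2 and 27.4 CPM (log2 fold change -0.35 with SE 0.10, adjusted p = 0.0202). The treated libraries lay below the controls in these 4 members. The calls of Mrpl48 and Mrpl18 were lost without any of the 4 libraries compared (adjusted p of 0.0696 to 0.201 and 0.0890 to 0.132), and that of Mrps26 without 3 of them (0.0722 to 0.319). The other members called were Mrpl3 (-0.33) and Mrpl42 (-0.29), and Mrpl3 and Mrpl18 were called at both doses. Leaving out any of the 4 libraries left 1 or 2 members lower, and total-count scaling left 1. Fitted with the libraries of the 2 groups alone, 7 of 76 members were lower and 0 higher, where 1594 and 1473 of 13644 genes were. These 2 µM libraries are the shallowest of the set. Of the 5 called members in the promoter table, 4 held the ETS motif and 4 the SP1 motif. These were held by 26.5% and 48.5% of member promoters and by 15.1% and 62.0% of tested genes. With only 5 genes this is a description, and no test of the difference was made.

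Between TAK901 2 µM and 1 µM, 0 of 76 members differed by edgeR, where 0.0455% of all genes were higher and 0.026% lower. At an unadjusted p under 0.05, 2 members were higher and 1 lower. DESeq2 gave an adjusted p for 1 of the 76, so its count is not used. The median difference was -0.00.

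**Figure D4:**
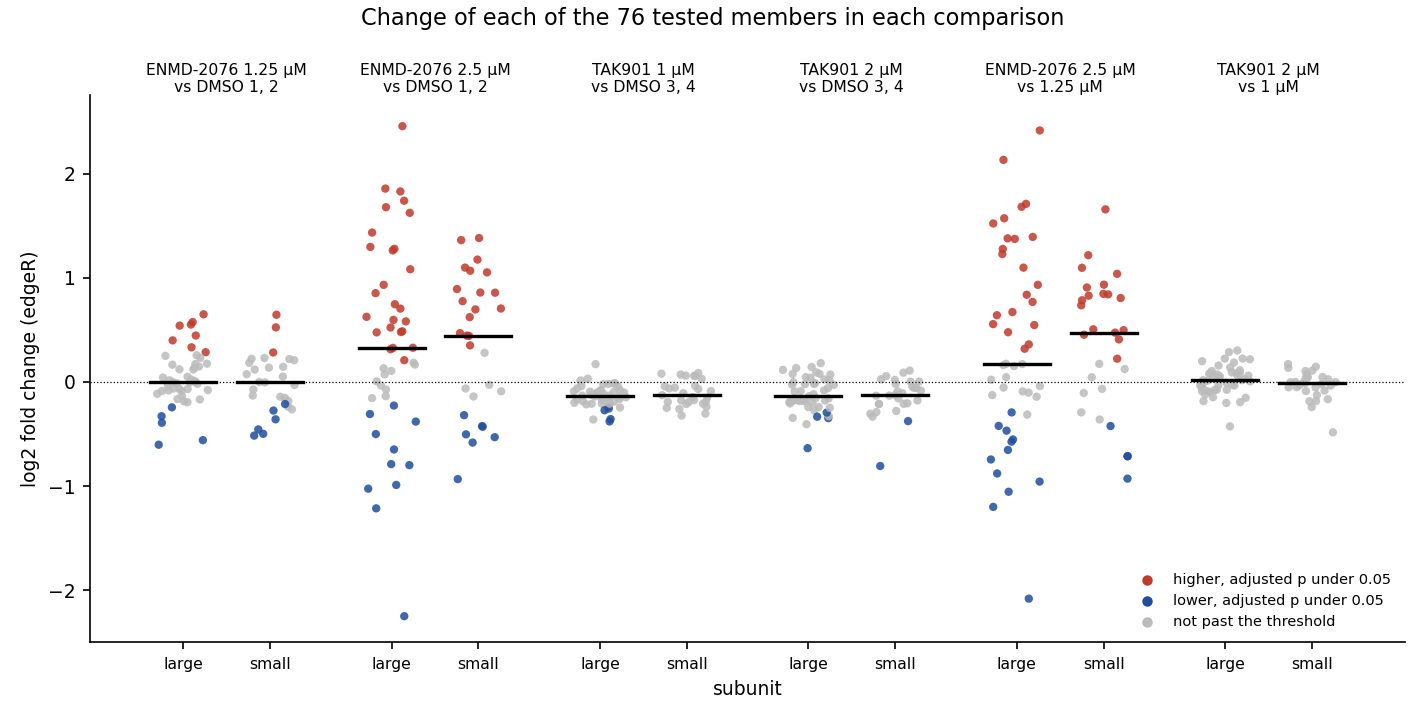
Log2 fold change (edgeR, y axis) of each of the 76 tested members in the 6 comparisons, split into 47 large and 29 small subunit genes. Points are genes, colours give calls at an adjusted p under 0.05, and bars are medians. The widest spread, from -2.25 to 2.45, is that of the large subunit at ENMD-2076 2.5 µM, and with TAK901 all points lie within 0.5 of 0 except Mrps28 (-0.81) and Mrpl48 (-0.64) at 2 µM.

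The subunits were compared in each treatment by their counts of calls and by their summed levels. At ENMD-2076 2.5 µM 26 of 47 large subunit genes rose and 11 fell (median log2 fold change 0.33), and 17 of 29 small subunit genes rose and 7 fell (median 0.44). The shares were close, at 55.3% and 58.6% higher and 23.4% and 24.1% lower, where 33.2% of all tested genes rose and 37.1% fell. Under total-count scaling the medians were -0.03 and 0.09. The summed level of the large subunit went from a mean of 1735 to 2784 CPM, a 1.6-fold higher level, and that of the small subunit from 915 to 1211 CPM, a 1.32-fold higher level. As a share of all counted reads the large subunit went from 0.172% to 0.216% and the small subunit from 0.0908% to 0.0938%, so that most of the higher small subunit level depends on the scaling. Counted in reads, which needs no scaling, the ratio of large to small was 2.33 and 2.27 at 2.5 µM and 1.88 to 1.97 in the other 10 libraries. The log2 ratio was higher than in DMSO 1, 2 by 0.28, with an SD within groups of 0.02. An exact permutation test of 2 against 2 libraries cannot go below p = 0.333, and no test of the ratio was made.

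The summed ratio leaned towards the large subunit while the medians did not. The 5 members that gained most in CPM were all large subunit genes: Mrpl13 gained 204 CPM, Mrpl18 139, Mrpl28 124, Mrpl42 118 and Mrpl30 98.3. Together they made up 684 of the net 1345 CPM gained by all members, or 50.8%. Without these 5, chosen after their values were seen, the ratio was 1.5 and 1.44 at 2.5 µM and 1.55 and 1.55 in DMSO 1, 2, a log2 change of -0.07. Leaving out the largest gainers of the same contrast, all of 1 subunit, lowers the ratio by construction.

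At ENMD-2076 1.25 µM 8 large subunit genes rose and 5 fell, and 3 small subunit genes rose and 6 fell, with medians of 0.00 and -0.00, and the ratio of sums was 1.88 and 1.96, against 1.89 and 1.90 in DMSO 1, 2. Between the ENMD-2076 doses 22 large and 18 small subunit genes were higher at 2.5 µM and 12 and 4 lower, with medians of 0.17 and 0.47. Of all tested genes 35.4% were higher and 37.8% lower. Under total-count scaling the median of the large subunit was -0.21 and that of the small 0.09. With TAK901 4 large and 0 small subunit genes fell at 1 µM, and 4 large and 2 small at 2 µM. For the small subunit at 1 µM, 6 were lower at an unadjusted p under 0.05, and DESeq2 called 0. The medians were -0.13 and -0.13 at 1 µM and -0.14 and -0.13 at 2 µM, and the ratio of sums stayed within 1.88 to 1.97. The difference between subunits was not tested.

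By symbol number, 43 tested members were taken as having a bacterial relative (large subunit numbers up to 36, small subunit numbers up to 21) and 33 as mitochondria-specific. At ENMD-2076 2.5 µM, where 33.2% of all tested genes rose and 37.1% fell, 22 of the bacterial-type members rose and 13 fell (median 0.28). Of the mitochondria-specific members 21 rose and 5 fell (median 0.47). Under total-count scaling these medians were -0.08 and 0.11. Among small subunit genes 10 of 13 mitochondria-specific members rose and 1, Mrps22, fell (median 0.70), whereas 7 of 16 bacterial-type members rose and 6 fell (median 0.11): Mrps2, Mrps6, Mrps10, Mrps16, Mrps17 and Mrps18c. Among large subunit genes the medians were 0.48 for 27 bacterial-type and 0.32 for 20 mitochondria-specific members, so the order of the classes differed between subunits. Mrpl47, Mrpl55, Mrps24 and Mrps28 have bacterial relatives that their numbers hide. With these 4 moved, 8 of 11 mitochondria-specific small subunit members rose and 1 fell (median 0.62), and 9 of 18 bacterial-type members rose and 6 fell (median 0.31). The head-to-head pair Mrpl46 and Mrps11, of which the shared promoter is printed above, were both higher at 2.5 µM, and since they overlap in GENCODE their reads there cannot be told apart: Mrpl46 went from 13.2 and 14 CPM to 46.7 and 39.9 CPM (log2 fold change 1.68 with SE 0.14, adjusted p = 2.05e-12) and Mrps11, at 18 and 19.7 CPM there, was higher too (log2 fold change 0.86 with SE 0.15, adjusted p = 5.36e-06).

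The motifs of the promoters were set beside the calls at ENMD-2076 2.5 µM as a description. Of the members that rose, 8 of 35 with a promoter in the table held the NRF1 motif (22.9%), and of those that fell 2 of 17 (11.8%). The ETS motif was held by 6 of 35 that rose (17.1%) and 6 of 17 that fell (35.3%). These counts are small, and no test of the difference was made.

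**Figure D5:**
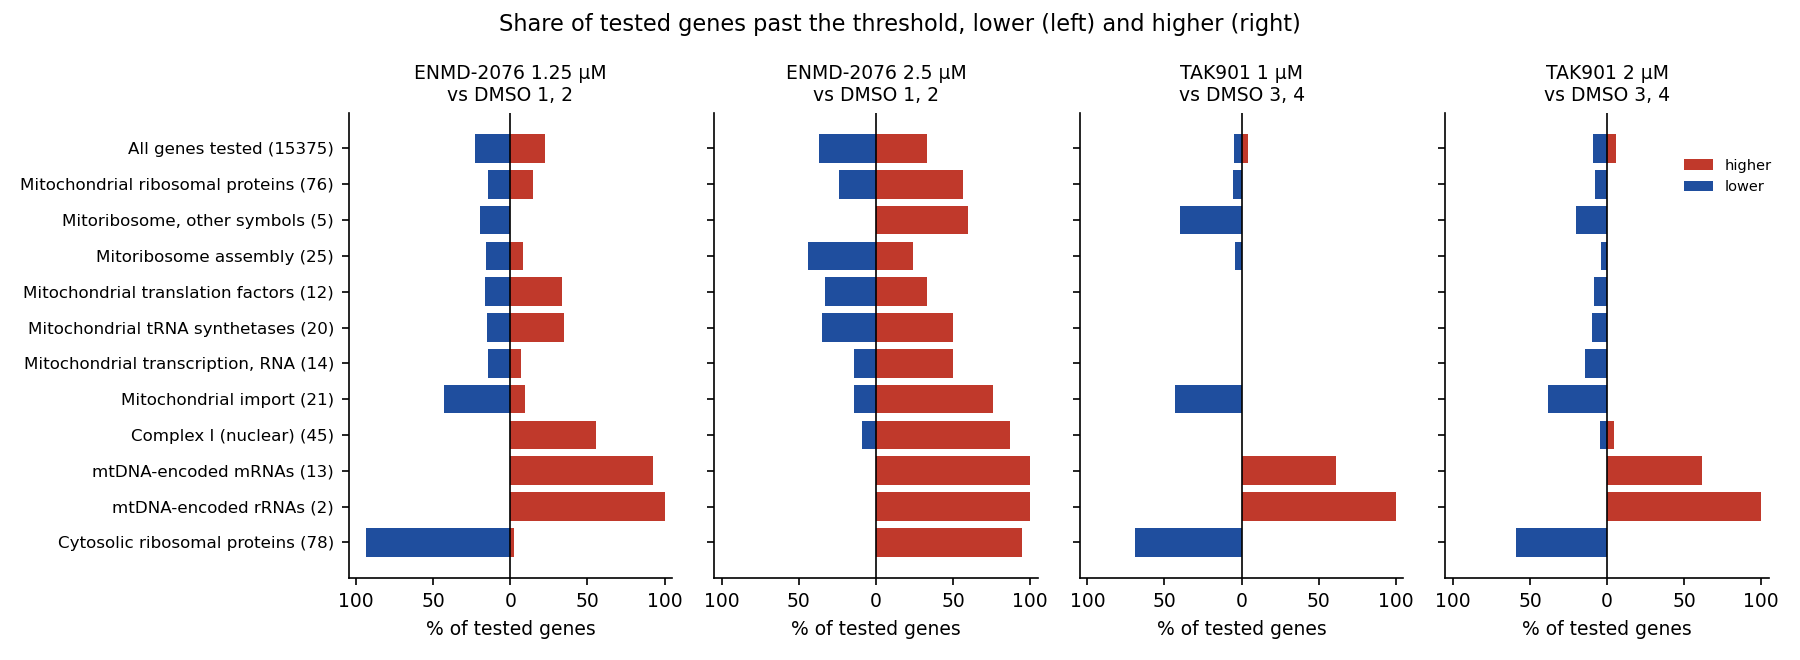
Share of the tested genes of each list (number in brackets) that were lower (left, blue) or higher (right, red) at an adjusted p under 0.05 in the 4 comparisons with DMSO (x axis, %). Mitochondrial ribosomal proteins stand at 56.6% higher and 23.7% lower at ENMD-2076 2.5 µM. Cytosolic ribosomal proteins are mostly lower in the other 3 comparisons and mostly higher in that one.

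Genes for 5 proteins of the mitochondrial ribosome with other symbols were set beside the members. At ENMD-2076 2.5 µM, where 33.2% of all tested genes rose, 3 of the 5 rose by edgeR. These were Ptcd3 with 1.25 (SE 0.08, adjusted p = 5.07e-15), Aurkaip1 with 0.67 (SE 0.09, adjusted p = 1.12e-07) and Dap3, also known as an apoptosis mediator, with 0.51 (SE 0.08, adjusted p = 1.44e-06). Chchd1 (0.25, adjusted p = 0.0565) and Gadd45gip1 (-0.11, adjusted p = 0.627) were not past the threshold. Under total-count scaling 2 of the 5 were higher and 1 lower. With TAK901 1 µM Chchd1 fell (-0.40, SE 0.12, adjusted p = 0.0279) and so did Ptcd3 (-0.24), which fell at 2 µM too (-0.28). Dap3 fell at ENMD-2076 1.25 µM (-0.26, SE 0.08, adjusted p = 0.00786). Of all tested genes 23.2% fell at that dose, and 5.17% and 9.28% fell at TAK901 1 and 2 µM.

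The rRNAs that these proteins bind are made in the mitochondrion. mt-Rnr1, the small subunit rRNA, was at 162 and 157 CPM in DMSO 1, 2, at 287 and 326 CPM at ENMD-2076 1.25 µM and at 1177 and 1082 CPM at 2.5 µM, rising by 0.94 (SE 0.08, adjusted p = 5.55e-12) and 2.82 (SE 0.08, adjusted p = 1.22e-23). mt-Rnr2, the large subunit rRNA, rose by 0.77 and 1.81 with ENMD-2076 and by 0.39 and 0.48 with TAK901, where mt-Rnr1 rose by 0.34 and 0.45. Of 13 mRNAs encoded in mitochondrial DNA, 12 and 13 rose at ENMD-2076 1.25 and 2.5 µM, and 8 rose at each TAK901 dose, with 0 lower by edgeR, by DESeq2 or at an unadjusted p under 0.05. These directions held under total-count scaling. Over all tested genes 22.6% and 33.2% rose at ENMD-2076 1.25 and 2.5 µM, and 3.97% and 5.63% at TAK901 1 and 2 µM. With TAK901, then, transcripts of the mitochondrial genome rose while the median of the ribosomal proteins lay at -0.13. Mitochondrial rRNA lacks the long tails that poly(A) selection uses, and whether the libraries were selected or depleted is not given in the sources used here.

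Assembly factors and rRNA-modifying enzymes of the mitochondrial ribosome had 6 of 25 higher and 11 lower at ENMD-2076 2.5 µM on the TMM scale, 3 and 15 under total-count scaling, and 9 and 7 with the size factors of DESeq2, so that the direction depends on the scaling. Tfb1m, the rRNA dimethyltransferase, fell (-1.92, SE 0.27, adjusted p = 1.59e-07) and Rcc1l, a large subunit assembly factor, rose (2.08, SE 0.13, adjusted p = 1.73e-15). Of 12 translation factors 4 rose and 4 fell, led by the elongation factor Gfm1 (1.61, SE 0.08, adjusted p = 3.61e-17) and the initiation factor Mtif2 (-1.79, SE 0.11, adjusted p = 1.33e-15). Of 20 mitochondrial tRNA synthetases 10 rose and 7 fell, among them Lars2, with 117 and 106 CPM in DMSO 1, 2 and 2566 and 2417 CPM at 2.5 µM (4.48, SE 0.11, adjusted p = 3.1e-25), and Rars2 (-1.65, SE 0.17, adjusted p = 2.58e-10). Lars2 was high in the libraries with high Gm26917 and Gm42418 given above, and the part of that in its value was not tested. Under total-count scaling the counts were 4 and 7 for the factors and 6 and 9 for the synthetases. Of 14 genes of mitochondrial transcription and RNA processing 7 rose, led by Trmt10c (2.41), and 2 fell, led by Tefm (-1.59), with 4 higher and 6 lower under total-count scaling. At ENMD-2076 1.25 µM the higher and lower counts were 2 and 4 for assembly, 4 and 2 for the factors, 7 and 3 for the synthetases and 1 and 2 for transcription and RNA processing. With TAK901 at most 2 genes of any of these 4 lists passed the test. Over all tested genes 33.2% rose and 37.1% fell at ENMD-2076 2.5 µM, and 22.6% and 23.2% at 1.25 µM.

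Protein import, by which the members reach the organelle, had 16 of 21 genes higher and 3 lower at ENMD-2076 2.5 µM (16 and 4 under total-count scaling), with Timm17a, a channel component of the inner membrane, at 1.75 and Pam16 at -1.01. At ENMD-2076 1.25 µM 2 rose and 9 fell, and with TAK901 9 and 8 fell, led each time by Timm8a1 (-1.07, -0.62 and -0.96). Over all tested genes 33.2% rose and 37.1% fell at ENMD-2076 2.5 µM, and 22.6% and 23.2% at 1.25 µM. With TAK901 1 and 2 µM 5.17% and 9.28% fell. Of 9 regulators of mitochondrial biogenesis 4 rose and 3 fell at 2.5 µM, and 1 rose and 5 fell at 1.25 µM. Myc had -0.86 at 1.25 µM and -2.69 at 2.5 µM. Nrf1, whose motif is printed above, fell at 1.25 µM (-0.57, SE 0.11, adjusted p = 3.61e-05) and rose at 2.5 µM (0.60, SE 0.10, adjusted p = 4.77e-06). Gabpb1, a subunit of GABP, rose at 2.5 µM (1.26, SE 0.10, adjusted p = 8.74e-13). Ppargc1a, a coactivator of mitochondrial genes, rose at ENMD-2076 1.25 µM (0.81) and at both TAK901 doses (0.87 and 0.77) and fell at ENMD-2076 2.5 µM (-0.61), and Pprc1 had -0.78 at ENMD-2076 1.25 µM and -0.41 and -0.68 with TAK901, all past the threshold.

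Cytosolic ribosomal proteins and complex I were set beside the members as other large families. Cytosolic ribosomal protein genes fell in 73 of 78 cases and rose in 2 at ENMD-2076 1.25 µM, where 11 of 76 members fell. They rose in 74 and fell in 0 at 2.5 µM (median 0.58, against 0.40 for the members), with 0 lower also at an unadjusted p under 0.05 and by DESeq2, and 47 higher and 10 lower under total-count scaling. With TAK901 54 and 46 of the 78 fell, against 4 and 6 of the 76 members, and their medians were -0.24 and -0.22 against -0.13 and -0.13. The nuclear genes of complex I, whose mitochondrially encoded partners are made on this ribosome, rose in 25 and 39 of 45 cases with ENMD-2076 and fell in 0 and 4, with 1 lower at 1.25 µM at an unadjusted p under 0.05 and 0 by DESeq2. With TAK901 1 µM 0 of the 45 passed, with 1 higher and 7 lower at an unadjusted p under 0.05 and 0 by DESeq2, and at 2 µM 2 rose and 2 fell. Over all tested genes 22.6% rose and 23.2% fell at ENMD-2076 1.25 µM, and 33.2% and 37.1% at 2.5 µM. With TAK901 3.97% rose and 5.17% fell at 1 µM, and 5.63% and 9.28% at 2 µM. The differences between these families, and from all genes, were not tested.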

How the data were processed

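Total RNA was extracted with TRIzol and libraries were made with the NEBNext Ultra RNA kit and sequenced on an Illumina HiSeq instrument, per the labels' protocols. The authors deposited, for each library, a table of whole-number read counts per Ensembl gene. The submitters' processing notes name mm10, HTSeq, TopHat, Bowtie, FastQC 0.11.3 and DESeq2, with no order. For annotation and strand setting the sources used here give nothing. Lines of reads counted to no gene stayed out. The tables used held 0 columns of other samples.

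Symbols, coordinates and exon lengths came from GENCODE release 21 (GRCm38), which named 37607 of 38924 IDs. From the deposited counts, genes were filtered with filterByExpr over all 6 groups, leaving 15375, and scaled by TMM. They were tested with the quasi-likelihood test of edgeR 4.0.16 (R 4.3.3, limma 3.58.1), two-sided, in 1 fit over all 12 libraries and 6 groups, and adjusted by Benjamini-Hochberg over all tested genes at 0.05. Levels are TMM-normalised CPM per library. The SE is the log2 fold change divided by the square root of F. Alternatives were DESeq2 1.42.0, its size factors in edgeR, total-count scaling, scaling without mitochondrially encoded genes, Gm26917 and Gm42418, no filter, fewer groups, a replicate block and leaving out each library. The fit was tested on simulated data.

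The members, lists and motifs were chosen with earlier results of these data known. Members are named by a rule: the 4 largest rises and 4 largest falls past the threshold in each comparison with DMSO, the 2 largest of each between doses, up to 4 members called in opposite directions at the doses of a compound, and landmark members. Of the other lists, the gene with the largest change past the threshold is named, and for shorter lists further genes were chosen after their values were seen. Mrpl13, Mrpl30, Mrpl46 and Mrps11 were likewise chosen afterwards. Same-numbered libraries did not deviate together (correlations of -0.0129 to 0.0221 over genes), so the numbers do not pair them. Libraries of a group differed by more than sampling noise (chi-square per degree of freedom of 2.39 to 7.32) and each was counted as 1. With 2 libraries a group, precision rests on the spread shared over all groups.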

Additional observations from a re-analysis of the deposited data

How the results depend on the processing

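Of the recomputed counts of members 126 stayed within 1.5 times and 20 did not. Total-count scaling gave 28 members lower at ENMD-2076 2.5 µM, 30 lower between its doses, and 1 lower at each TAK901 dose. It turned the sign of Mrpl45 at ENMD-2076 2.5 µM (-0.031) and between doses (-0.0211) and of Mrps18a between doses (-0.1574). DESeq2 gave 11 members lower at ENMD-2076 2.5 µM and 2 at TAK901 1 µM. At TAK901 1 µM no filter gave 1 lower, the libraries of its own set alone 15, and the 2 groups alone 19 lower and 1 higher. Leaving out 1 library gave 6 to 12 members lower at ENMD-2076 1.25 µM, 0 to 0 at TAK901 1 µM and 1 to 2 at TAK901 2 µM. With a replicate block 44 members were higher and 18 lower at ENMD-2076 2.5 µM, 11 and 11 at 1.25 µM and 40 and 16 between doses, and the samples share only a number. The change in the log2 ratio of large to small was -0.0091 at TAK901 1 µM with subunits assigned by structure, and -0.0731 at ENMD-2076 2.5 µM without the 5 members that gained most, an alternative added after the values were seen. By construction fewer genes or libraries enter several of these fits. Otherwise the cause was not tested. Of the values of single named members, 620 kept their direction and call, 81 kept the direction and lost the call, and 3 turned. With 3746588 and 6004077 reads the TAK901 2 µM libraries limit what its comparisons can detect.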
